A study of Mus musculus with 27 samples.

Results

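Voltage-gated potassium (Kv) channel genes were examined in RNA-sequencing counts from mouse frontal cortex and striatum. The members were all rows of the count tables whose Ensembl identifier maps to a protein-coding gene with a symbol of the Kcna, Kcnb, Kcnc, Kcnd, Kcnf, Kcng, Kcnh, Kcnq, Kcns or Kcnv families followed by a number. The rule uses names only and took 40 of the 52636 gene identifiers. The study compared wild-type mice with mice homozygous for the deletion of a 4.9-kb enhancer fragment between H19 and Igf2 (Igf2enh-/-), all on the 129S1 background and about 2.5 months old. The deletion was made by gene targeting in embryonic stem cells, is present in every cell, and leaves a loxP site after excision of the selection cassette with Hprt-CRE, so neuronal and non-neuronal cells carry it alike. Frontal cortex gave 6 wild-type and 6 Igf2enh-/- libraries, each with 3 females and 3 males. Striatum gave 7 wild-type libraries (3 females, 4 males) and 8 Igf2enh-/- libraries (4 females, 4 males).

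Kv channels open on depolarization and return the membrane towards rest, so they set how long an action potential lasts, how soon the next can follow and how far excitation spreads along a dendrite or axon. Each channel is a tetramer of pore-forming alpha subunits. Kv1 to Kv4 (Kcna to Kcnd) are named after the fly genes Shaker, Shab, Shaw and Shal. Kv7 (Kcnq) subunits carry the slow M-current, and the ether-a-go-go group (Kcnh) holds Eag, Erg and Elk channels. The silent modifiers (Kcnf, Kcng, Kcns, Kcnv) form no channel alone and change Kv2 channels when they join them. In the striatum most neurons are medium spiny neurons, whose hyperpolarized rest is held partly by potassium currents, while the cortex is dominated by glutamatergic projection neurons.

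Libraries held 23686945 to 33926904 counts. Levels are given as CPM, a library's share of counts scaled by the trimmed mean of M-values (TMM) over all libraries. Markers of the labelled tissues were as labelled, with a sum over 11 medium spiny neuron genes of 186 to 268 CPM in frontal cortex and 3856 to 10756 CPM in striatum. The sum over 10 cortical projection neuron genes was 2569 to 2855 CPM in frontal cortex and ran from 66.6 to 1365 CPM in striatum. Library 20 (striatum, wild-type male) stood apart, with the lowest medium spiny sum of the 15 striatal libraries and the highest cortical and oligodendrocyte sums (1365 and 10495 CPM). Library 23 (striatum, Igf2enh-/- male) came next in the cortical sum at 1010 CPM. Library 15 (striatum, Igf2enh-/- female) had a choroid plexus sum of 4601 CPM against 171 to 366 CPM in the other 26 libraries. Library 1 (frontal cortex, Igf2enh-/- female) had an oligodendrocyte sum of 986 CPM against 1485 to 2106 CPM in the other 11 and the highest meningeal fibroblast sum of that region, 300.3 CPM. Results that rest on libraries 1 or 20 are given with and without them. The enhancer itself gives no counts. Igf2, its neighbour, was at 72.9 ± 19.1 CPM (SD, n = 6) in wild-type and 124 ± 27.7 CPM (SD, n = 6) in Igf2enh-/- frontal cortex (log2 difference 0.77, SE 0.134, adjusted p = 0.0285, edgeR quasi-likelihood test).

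Of the 40 members, 25 matched the RefSeq table of start sites on GRCm38.p6, with 30 windows. Sequences were drawn from 8 members, the 4 with the largest region difference in each direction among those called in both genotypes. Members whose window lies wholly outside the gene's RefSeq span were kept, 3 higher and 2 lower in striatum. For these, the 250 bases before the start are shown. They are printed 5′ to 3′ on the strand of the gene, in lower case, with GGGCGG (GC box) or its reverse complement CCGCCC in capitals. The windows are chr6:126535556-126535805 (minus strand) for Kcna5, chr2:107290339-107290588 (plus) for Kcna4, chr6:21215096-21215345 (plus) for Kcnd2, chr2:63184288-63184537 (minus) for Kcnh7 and chr8:119635681-119635930 (minus) for Kcng4.
Kcna5: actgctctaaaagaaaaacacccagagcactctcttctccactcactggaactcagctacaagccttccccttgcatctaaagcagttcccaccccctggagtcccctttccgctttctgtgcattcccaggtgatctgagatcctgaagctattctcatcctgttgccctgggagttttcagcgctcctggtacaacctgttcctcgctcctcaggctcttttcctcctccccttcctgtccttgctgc
Kcna4: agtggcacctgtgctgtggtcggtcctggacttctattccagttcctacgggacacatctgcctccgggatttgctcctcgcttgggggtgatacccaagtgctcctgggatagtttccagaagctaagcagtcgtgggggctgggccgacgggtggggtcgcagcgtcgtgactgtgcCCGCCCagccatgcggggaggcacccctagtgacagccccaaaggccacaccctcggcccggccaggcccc
Kcnd2: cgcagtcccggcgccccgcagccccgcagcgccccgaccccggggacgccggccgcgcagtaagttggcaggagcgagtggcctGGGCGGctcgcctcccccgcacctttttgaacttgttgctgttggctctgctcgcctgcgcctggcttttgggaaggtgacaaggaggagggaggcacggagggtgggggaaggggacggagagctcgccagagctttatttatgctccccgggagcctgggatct
Kcnh7: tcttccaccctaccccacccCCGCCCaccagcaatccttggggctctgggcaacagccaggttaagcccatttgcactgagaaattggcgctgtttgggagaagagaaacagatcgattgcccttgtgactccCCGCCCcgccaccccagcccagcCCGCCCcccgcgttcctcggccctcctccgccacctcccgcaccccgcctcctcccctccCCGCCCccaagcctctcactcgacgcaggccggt
Kcng4: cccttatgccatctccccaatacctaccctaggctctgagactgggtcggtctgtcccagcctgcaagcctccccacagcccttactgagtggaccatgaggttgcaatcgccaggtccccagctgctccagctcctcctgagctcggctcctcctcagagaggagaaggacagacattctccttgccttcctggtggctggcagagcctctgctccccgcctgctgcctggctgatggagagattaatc
GGGCGG was in 17 of the 30 member windows (56.7%) on either strand, against 32.7% of all 32851 windows of the table. Kcnh7 held 4 matches, the first at bases 230 to 225 before the start and the last at bases 34 to 29. Kcna5 and Kcng4 held no match. TATAAA, a core promoter element, was in no member window and in 12.4% of all windows, and TGACGTCA (cAMP response element) in no member window and 1.55% of all. CACGTG (an E-box) was in 1 member window, that of Kcnh4, and in 6.02% of all. In the member windows no match of one motif overlapped a match of another. Median GC content was 62.6% in member windows and 52.4% in all windows, and the windows printed above ran from 53.2% for Kcna5 to 68.8% for Kcnd2. CpG dinucleotides numbered 3 in the Kcna5 window, 4 in that of Kcng4 and 22 in that of Kcnd2. These matches describe the letters only.

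Genotype was tested on genes that reached 1 CPM in each library of the region, which left 34 members in frontal cortex and 33 in striatum. For the region comparisons a gene needed a mean of 1 CPM over both regions, which kept 34 members. Kcna7, Kcna10, Kcng3, Kcnh8, Kcnq1 and Kcnv2 were under the filter throughout. Kcna7 and Kcnv2, the latter a modifier known from photoreceptors, had at most 1 and 4 counts in any library, and Kcna10 at most 6. Kcng3 reached 15 counts and Kcnh8, an Elk channel, 38. Kcng4 passed in frontal cortex and fell under the filter in striatum, so it was tested between regions and not for genotype in striatum.

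Kcnq1, the cardiac and epithelial KCNQ channel, lies on distal chromosome 7, as Igf2 does. It starts 492 kb beyond the deleted fragment on NCBIM37 (fragment chr7:149796331-149801250, gene chr7:150293159-150612955). It had 5 to 27 counts per frontal cortex library and 2 to 14 per striatal library, or 0.442 ± 0.106 CPM (SD, n = 6) in wild-type and 0.458 ± 0.235 CPM (SD, n = 6) in Igf2enh-/- frontal cortex. In striatum the levels were 0.273 ± 0.103 CPM (SD, n = 7) and 0.320 ± 0.172 CPM (SD, n = 8). These counts were under the filter of the genotype fits, and without a filter Kcnq1 was not called in either region. The antisense transcript Kcnq1ot1 runs through the gene, and since no source gives the strand used in counting, reads of the pair cannot be told apart.

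Levels per kilobase of exon (RPKM, from GENCODE vM1 exon lengths) were used to compare members with one another. In wild-type frontal cortex the highest member was Kcna2, the axonal Kv1 subunit, at 127 ± 5.65 RPKM (SD, n = 6). Kcnh3, an Elk channel of forebrain neurons, stood at 62.9 ± 4.32 RPKM. Kcnv1 led the silent modifiers at 36.1 ± 2.90 RPKM. In wild-type striatum these subunits again led their groups, with Kcna2 at 83.0 ± 14.3 RPKM (SD, n = 7), Kcnh3 at 50.9 ± 3.46 and Kcnv1 at 17.8 ± 1.93. Kcnd2, the dendritic A-type channel, led the Kv4 group in both, at 24.6 ± 1.08 RPKM in frontal cortex and 52.6 ± 11.8 RPKM in striatum. Kcnq3, an M-current subunit, stood at 87.6 ± 1.93 RPKM in frontal cortex and 112 ± 13.1 RPKM in striatum. In CPM, Kcna2 ran from 409 through 449 to 453 in wild-type cortex and from 237 through 274 to 387 in wild-type striatum, which did not overlap. Kcnh3 ran from 210.1 through 235 to 250.1 and from 166 through 189.9 to 202, without overlap. Both leaders were thus lower in every wild-type striatal library than in any wild-type cortical one. Kcnv1 ran from 147 through 161 to 185 and from 70.1 through 78.1 to 94.7, also without overlap, while Kcnq3 went the other way, from 223 through 231 to 235 and from 247 through 281 to 354. The annotated Kcnq3 model holds coding bases only, as do those of Kcnb2, Kcng2 and Kcnh8, so their levels per length are too high beside the others.

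The first comparison was between regions, within each genotype, with libraries of both regions treated as independent because the labels tie no library to a mouse. Members moved in both directions, more of them down than up in striatum. In wild-type mice 33 of 34 members differed (edgeR quasi-likelihood test, adjusted p under 0.05), 10 higher and 23 lower in striatum, where 67.5% of all 14894 genes passed, 33.9% higher and 33.7% lower. In Igf2enh-/- mice 29 of 34 differed, 9 higher and 20 lower, where 68.8% of all genes passed, 34.2% higher and 34.7% lower. The median log2 difference (striatum minus frontal cortex) of the 34 members was -0.61 in wild-type and -0.46 in Igf2enh-/- mice, against 0.0084 and 0.0018 for all genes. The 29 members called in both genotypes had the same direction in both. Kcnh6 was not called in either, and Kcnh2, Kcnq5, Kcna3 and Kcng1 were called in wild-type mice only, although no member had an interaction at an unadjusted p under 0.05. In bulk tissue, fewer cells of a type and less RNA per cell cannot be told apart.

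**Figure D1:**
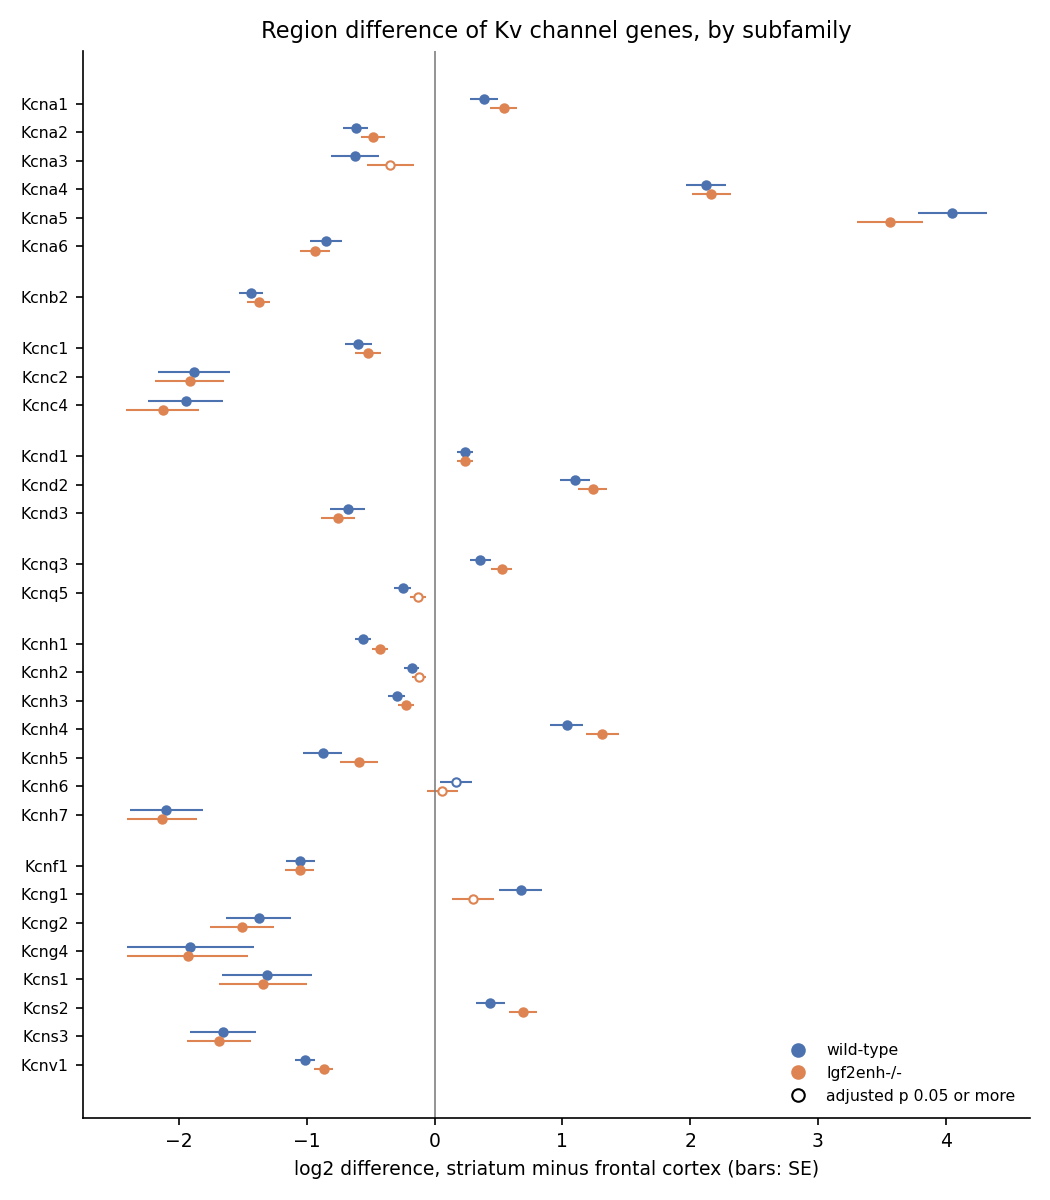
Log2 difference between striatum and frontal cortex (x axis, striatum minus frontal cortex, bars are SE) for 30 of the 34 Kv channel genes tested, by subfamily from top (Kcna) to bottom (silent modifiers), in wild-type (blue) and Igf2enh-/- mice (orange). Filled points passed an adjusted p under 0.05. Kcna5 and Kcna4 lie farthest to the right, the Kcnc genes shown lie to the left of 0, and the 2 genotypes sit close together for most genes.

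Ranges of all libraries of the 2 regions did not overlap for 11 members, 3 higher and 8 lower in striatum, against 26.3% of all genes tested. Without library 20 they did not overlap for 15 members, 5 higher and 10 lower, against 32.6% of all genes. Kcna4, Kcna5 and Kcnd2 were the 3 higher. Kcna6, Kcnb2, Kcnc2, Kcnc4, Kcnf1, Kcng2, Kcnh7 and Kcnv1 were the 8 lower. Kcns2 (higher) and Kcns3 (lower) were among those that joined them when library 20 was left out.

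Within the Kv1 group, 3 of the 6 members tested were higher and 3 lower in wild-type striatum. Kcna5 (ENSMUSG00000045534), a delayed rectifier best known from heart and smooth muscle, had the largest difference of any member. The 6 wild-type frontal cortex libraries ran from 1.21 through a median of 1.40 to 2.16 CPM, and the 6 Igf2enh-/- libraries from 1.13 through 1.79 to 2.79 CPM. The 7 wild-type striatal libraries ran from 10.2 through 24.8 to 44.6 CPM and the 8 Igf2enh-/- libraries from 19.5 through 23.0 to 27.2 CPM. Every striatal library was above every cortical one, and the lowest striatal value was that of library 20. The log2 difference was 4.05 (SE 0.270, adjusted p = 3.4e-12, edgeR) in wild-type and 3.56 (SE 0.257, adjusted p = 1.22e-11) in Igf2enh-/- mice. Kcna4, the inactivating A-type Kv1 subunit, ran from 16.7 through 19.5 to 23.8 CPM in wild-type frontal cortex and from 39.3 through 90.4 to 109 CPM in wild-type striatum. The Igf2enh-/- libraries ran from 18.0 through 20.8 to 21.9 CPM and from 70.2 through 90.9 to 111 CPM. The regions did not overlap, library 20 again being the lowest of the striatum, and the log2 differences were 2.12 (SE 0.157) and 2.17 (SE 0.154). Kcna1, the axonal subunit mutated in episodic ataxia, was 0.38 (SE 0.110) and 0.54 (SE 0.107) higher on the log2 scale. Its partner Kcna2 fell by 0.62 (SE 0.0967) in wild-type and by 0.48 (SE 0.0934) in Igf2enh-/- mice, and Kcna6 by 0.85 (SE 0.123) and 0.94 (SE 0.119).

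Kcna5, Kcna1 and Kcna6 are neighbours on chromosome 6 of GRCm38 (chr6:126532551-126740834), with 100.9 kb between the first pair and 62.5 kb between the second. The first and second were higher in striatum and the third lower. On chromosome 3, Kcna3, Kcna2, Kcna10 and Kcnc4 lie within chr3:107036162-107460287. The 3 of these that were tested were all lower in wild-type striatum, at -0.62 (Kcna3), -0.62 (Kcna2) and -1.95 (Kcnc4).

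Members of the Kv3 group, whose fast gating allows high-frequency firing, were lower in striatum in both genotypes, here Kcnc4, Kcnc2 and Kcnc1. Kcnc4 (ENSMUSG00000027895) ran from 72.7 through 76.3 to 82.9 CPM in wild-type frontal cortex and from 8.46 through 18.7 to 40.3 CPM in wild-type striatum. In Igf2enh-/- mice it ran from 64.2 through 71.5 to 83.8 CPM and from 9.88 through 14.6 to 29.0 CPM. The groups did not overlap, and library 20 was again the highest of the striatum. The log2 difference was -1.95 (SE 0.293, adjusted p = 2.35e-06, edgeR) and -2.13 (SE 0.283, adjusted p = 3.39e-07). Kcnc2 ran from 139 through 144 to 151 CPM in wild-type frontal cortex and from 17.2 through 37.7 to 76.6 CPM in wild-type striatum, and from 121 through 139.6 to 151 CPM and from 15.6 through 32.8 to 73.0 CPM in Igf2enh-/- mice. Its regions did not overlap and it differed by -1.88 (SE 0.279) and -1.92 (SE 0.268). Kcnc1 fell by 0.60 (SE 0.105) in wild-type mice and by 0.52 (SE 0.101) in Igf2enh-/- mice. Pvalb, the marker of the fast-spiking interneurons in which Kv3 channels are known, differed by -1.36 (SE 0.332) and -1.60 (SE 0.319). Of the 6 parvalbumin interneuron genes, 4 were higher and 2 lower in striatum in each genotype. Those called were 3 higher and 2 lower in wild-type mice, and 3 higher and 1 lower in Igf2enh-/- mice. The sum over the 6, of which Tac1 is also a medium spiny gene, was 420 to 594 CPM in frontal cortex and 793 to 1163 CPM in striatum. The part of these interneurons in the Kv3 difference was not tested.

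In striatum Kcnc4 and Kcnh7 were higher in libraries with more cortical projection neuron RNA. Kcnc4 was at 9.34, 8.94 and 8.46 CPM in libraries 22, 14 and 24, whose cortical sums were 66.6, 79.5 and 187 CPM. It was at 40.3, 29.0, 29.1 and 26.9 CPM in libraries 20, 23, 16 and 26, whose sums were 1365, 1010, 918 and 774 CPM. Kcnh7 was at 29.3, 28.3 and 29.5 CPM in the first 3 of these libraries and at 139, 100.045, 68.0 and 61.7 CPM in the other 4. Kcnv1 followed this order less closely. It was at 70.1, 73.2 and 86.6 CPM in libraries 22, 14 and 24, and at 74.4, 96.5, 94.7 and 78.1 CPM in libraries 20, 23, 16 and 26. All 10 cortical projection neuron genes were lower and all 11 medium spiny genes higher in striatum in both genotypes. The part of cortical neurons in the region differences was not tested.

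Kcnb2, a delayed rectifier of the Kv2 group, fell in striatum. It ran from 32.5 through 35.7 to 39.1 CPM in wild-type frontal cortex and from 10.5 through 13.5 to 16.3 CPM in wild-type striatum. It differed by -1.44 (SE 0.0951, adjusted p = 3.04e-12, edgeR) and -1.38 (SE 0.0913), with no overlap between regions in either genotype.

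The Kv4 group, which carries the somatodendritic A-type current, held 2 members higher and 1 lower in striatum. Kcnd2 ran from 119 through 126 to 137 CPM in wild-type frontal cortex and from 161 through 285 to 328 CPM in wild-type striatum. The Igf2enh-/- libraries ran from 117 through 123 to 129 CPM and from 226 through 299 to 333 CPM. The lowest striatal value was that of library 20 and still above every cortical library. The log2 difference was 1.10 (SE 0.116, adjusted p = 9.38e-09, edgeR) and 1.24 (SE 0.114, adjusted p = 7.88e-10). Kcnd1 was 0.24 higher in both genotypes (SE 0.0615 and 0.0597), and Kcnd3 fell by 0.68 (SE 0.139) and 0.76 (SE 0.134).

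In the Kv7 group the M-current subunit Kcnq3 was higher in striatum, by 0.36 (SE 0.0831) in wild-type and by 0.52 (SE 0.0812) in Igf2enh-/- mice. Kcnq5 differed by -0.25 (SE 0.0681) in wild-type mice and by -0.13 (SE 0.0661) in Igf2enh-/- mice, where its adjusted p was 0.0842, 0.0185 without library 1 and 0.0358 without library 20.

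The ether-a-go-go group held members far apart in both directions. Kcnh7, an Erg channel, ran from 229 through 238 to 242 CPM in wild-type frontal cortex and from 28.3 through 43.8 to 139 CPM in wild-type striatum. The Igf2enh-/- libraries ran from 158 through 219 to 252 CPM and from 32.0 through 45.1 to 100.045 CPM. The 2 highest striatal values were those of libraries 20 and 23, and the lowest cortical value that of library 1. The log2 difference was -2.10 (SE 0.286, adjusted p = 5.46e-07, edgeR) and -2.13 (SE 0.273, adjusted p = 1.92e-07), and -2.44 (SE 0.238) in wild-type mice without library 20. Kcnh4 (ENSMUSG00000035355, chr11:100740378-100760115 on GRCm38), an Elk channel known from telencephalon, was 1.04 (SE 0.129) and 1.31 (SE 0.129) higher in striatum. Of the others, the Eag channels Kcnh1 and Kcnh5 fell in wild-type mice by 0.56 (SE 0.0639) and 0.87 (SE 0.153), and Kcnh3 by 0.30 (SE 0.0665). Kcnh2, the Erg channel of cardiac repolarization, differed by -0.18 (SE 0.0593) and -0.12 (SE 0.0574, adjusted p = 0.0600). Kcnh6 had a log2 difference of 0.17 (SE 0.123, adjusted p = 0.231) and 0.06 (SE 0.119, adjusted p = 0.659).

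Of the 8 silent modifiers tested, 2 were higher and 6 lower in wild-type striatum. Kcng4 had the widest spread. It ran from 5.06 through 7.72 to 10.4 CPM in wild-type frontal cortex and from 0.480 through 1.35 to 9.80 CPM in wild-type striatum, the highest being library 20. In Igf2enh-/- mice it ran from 2.72 through 7.76 to 9.76 CPM and from 0.917 through 1.27 to 6.10 CPM, with library 1 lowest in the cortex and library 23 highest in the striatum. The regions overlapped, and the log2 difference was -1.91 (SE 0.494, adjusted p = 0.00142, edgeR) in wild-type mice, -2.74 (SE 0.405) without library 20, and -1.93 (SE 0.471) in Igf2enh-/- mice. Kcns3 fell by 1.66 (SE 0.257), Kcng2 by 1.38 (SE 0.256) and Kcns1 by 1.31 (SE 0.353) in wild-type mice. Without library 20, in which Kcns1 was at 24.1 CPM against 3.56 to 6.03 CPM in the other 6, the wild-type log2 differences were -2.02 (SE 0.196) for Kcns3, -1.28 (SE 0.256) for Kcng2 and -1.89 (SE 0.253) for Kcns1. Kcnv1 and Kcnf1 were the modifiers of highest level per length in frontal cortex and in wild-type striatum. They fell by 1.02 (SE 0.0774) and 1.05 (SE 0.116) in wild-type mice, and by 0.87 (SE 0.0744) and 1.06 (SE 0.112) in Igf2enh-/- mice. Kcns2 was 0.44 (SE 0.111) and 0.69 (SE 0.109) higher. Kcng1 was 0.67 (SE 0.171) higher in wild-type mice and differed by 0.30 (SE 0.165, adjusted p = 0.107) in Igf2enh-/- mice, or 0.30 with an adjusted p of 0.0254 when library 20 was left out of the joint fit.

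**Figure D2:**
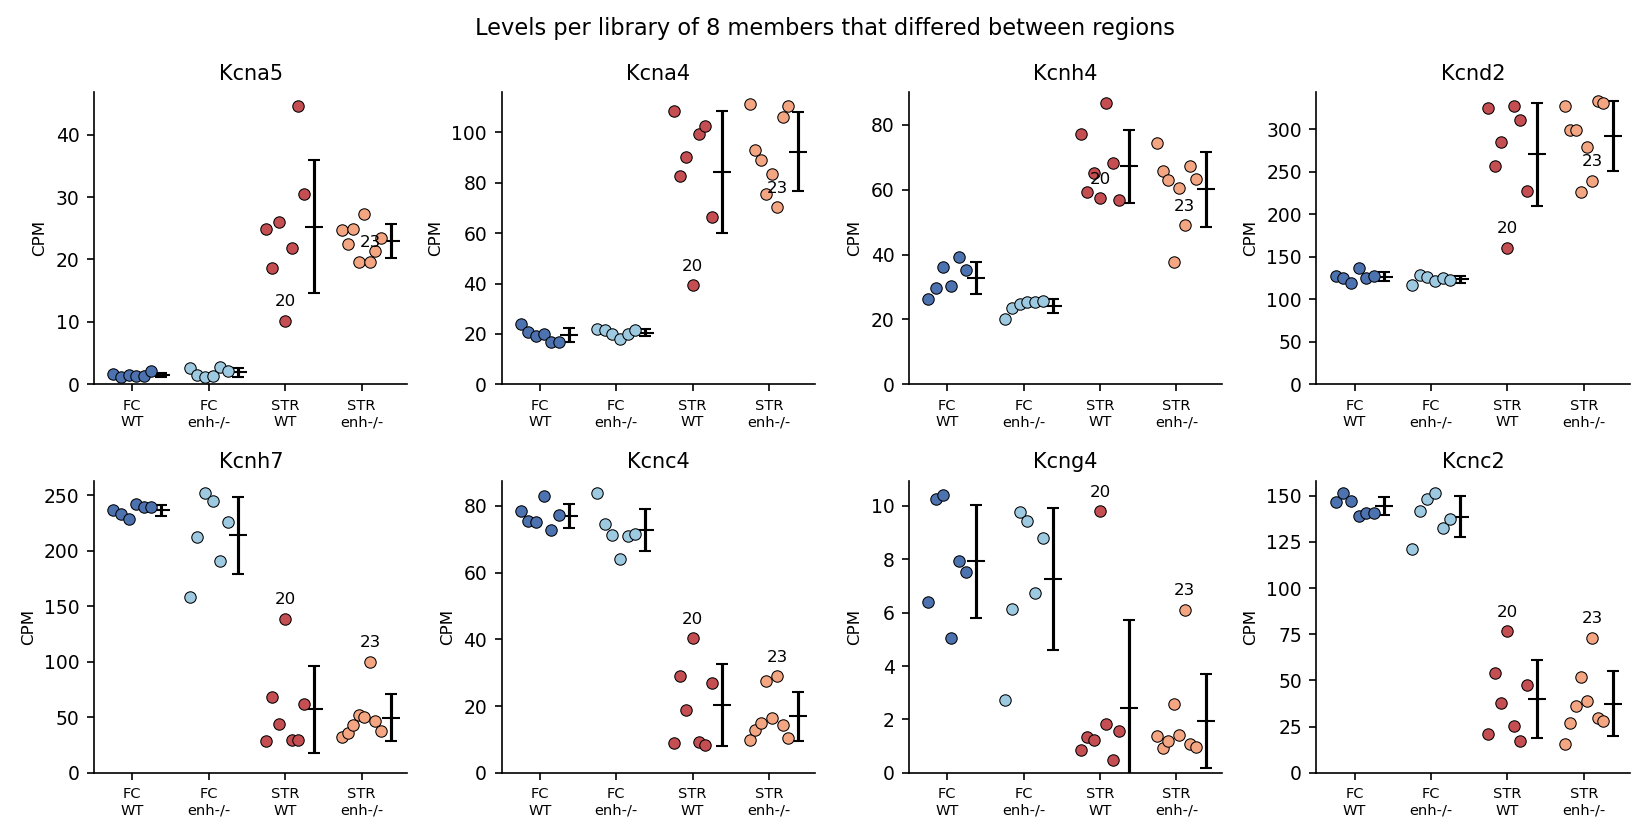
Levels (y axes, TMM-scaled CPM from 0) of 8 members, one point per library, in wild-type and Igf2enh-/- frontal cortex (FC) and striatum (STR). They are the 4 with the largest region difference in each direction among those called in both genotypes. The 4 in the upper row were higher and the 4 in the lower row lower in striatum. Lines at the right of each group are the mean and SD (cut at 0 for Kcng4), and libraries 20 and 23 are numbered. In the upper row library 20 is the lowest or among the lower striatal points, and in the lower row it is the highest.

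Auxiliary subunits were listed apart from the members. Of 15 found, 11 were tested between regions. In wild-type mice all of these were called, 5 higher and 6 lower in striatum, against 67.5% of all genes. In Igf2enh-/- mice 4 were higher and 6 lower, and Kcnip3 was not called, against 68.8% of all genes called. Kcnab1, the beta subunit that gives Kv1 channels fast inactivation, had log2 differences of 2.89 (SE 0.166) and 2.80 (SE 0.163), the largest of the list. Kcnip2, a calcium-binding subunit of Kv4, was 1.39 (SE 0.108) and 1.53 (SE 0.106) higher, and Kcne1l (Kcne5) 1.88 (SE 0.171) and 1.84 (SE 0.166) higher. The other Kv4 partners Kcnip4, Kcnip1 and Dpp10 fell in wild-type mice by 0.86 (SE 0.0585), 1.04 (SE 0.274) and 1.10 (SE 0.104), while Dpp6 was 0.33 (SE 0.0700) higher. Kcnab3 and Kcnab2 fell by 1.67 (SE 0.475) and 0.36 (SE 0.0774), and Amigo1, which joins Kv2 channels, by 0.59 (SE 0.0457). Kcna4, Kcna5 and Kcnab1 were all higher in wild-type striatum, as were Kcnd2 and Kcnip2, while Kcnab2, Kcnab3, Kcnip4, Kcnip1 and Dpp10 were lower. Whether auxiliary subunits moved with their channel partners was not tested. Of 8 genes that anchor Kv1 and Kv7 channels at the axon, 6 differed in wild-type mice, 5 higher and 1 lower, against 67.5% of all genes. Ank3 was 0.49 (SE 0.0612) and Cntn2 0.61 (SE 0.0841) higher. Glial RNA differed as well, since all 8 oligodendrocyte genes were called higher in striatum in both genotypes. Their median log2 difference was 1.83 in wild-type and 1.74 in Igf2enh-/- mice. The part of oligodendrocytes in the values of the anchoring genes was not tested.

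The mean of log2(CPM + 0.5) over the 40 members summarised each library. In frontal cortex it was 4.54 in library 1 and 4.71 to 4.78 in the other 11. In striatum it ran from 4.28 through 4.42 to 4.62, a range that overlapped the cortical one only through library 1, with libraries 23 and 20 highest at 4.62 and 4.57. The mean was 4.42 ± 0.103 (SD, n = 15) in striatum and 4.72 ± 0.0592 (SD, n = 12) in frontal cortex, a difference of -0.299, or -0.309 without library 20. Library 1 was the lowest of the 12 cortical libraries for 20 of the 34 members tested (58.8%) and for 17.5% of all genes tested there. The 4 striatal libraries with the highest list means were also the 4 with the highest sums of cortical projection neuron genes.

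**Figure D3:**
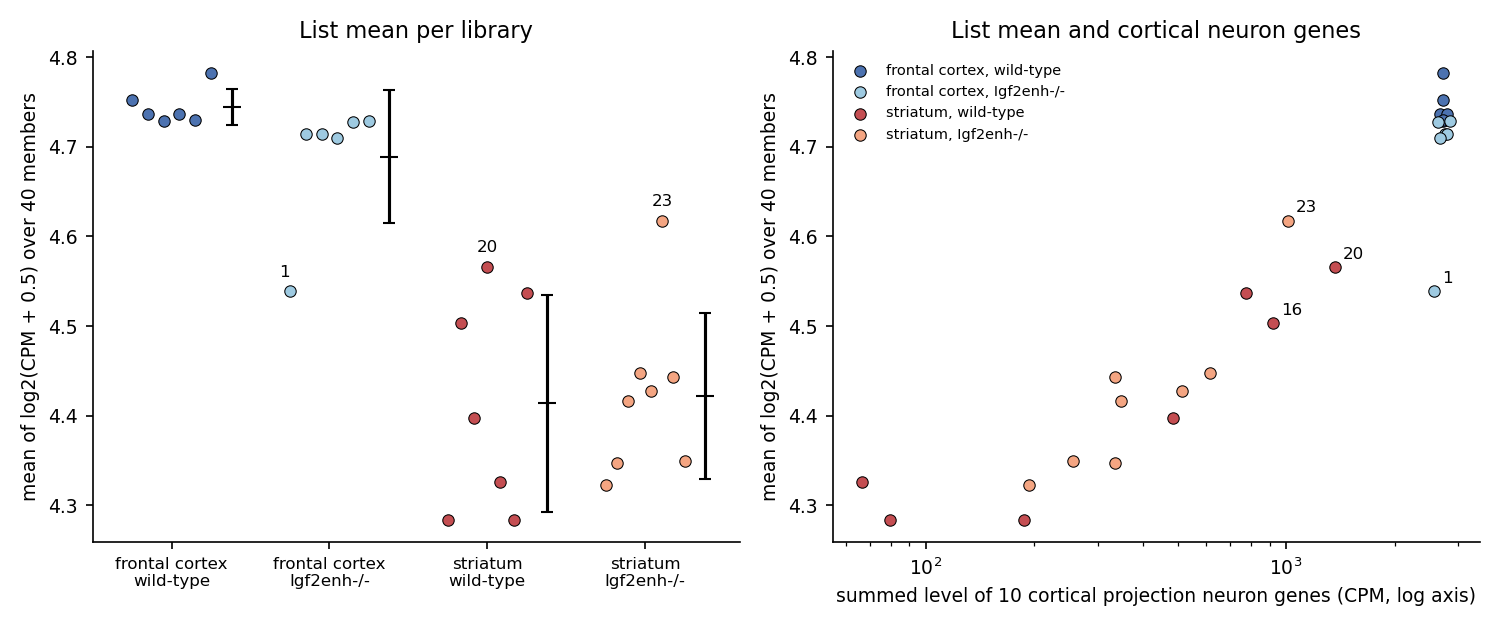
Left, mean of log2(CPM + 0.5) over the 40 members (y axis) in each library by group, with the mean and SD of the group beside it. Right, the same list mean (y axis) against the summed level of 10 cortical projection neuron genes (x axis, CPM on a log axis), coloured by group. Library 1 sits below the other cortical libraries, with a cortical sum of 2569 CPM, and the striatal libraries of higher cortical sum, 20 and 23 among them, have higher list means.

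The difference of group means of the list (Igf2enh-/- minus wild-type) was -0.055 in frontal cortex and -0.025 without library 1. In striatum it was 0.0076, and 0.033 without library 20. The 5 Igf2enh-/- cortical libraries other than library 1 lay between 4.71 and 4.73, and the 6 wild-type libraries between 4.73 and 4.78.

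The genotype comparison asks whether loss of the Igf2 enhancer changed transcription in each region. In frontal cortex 1 of 34 members was called, where 0.38% of 13936 genes passed (edgeR quasi-likelihood test, adjusted p under 0.05), and 6 of 34 had an unadjusted p under 0.05, against 13.5% of all genes. The log2 difference (Igf2enh-/- minus wild-type) was below 0 for 24 of the 34 members, 70.6%, and for 49.6% of all genes tested. Without library 1 it was below 0 for 20 of 34. The median was -0.07 for the members, -0.03 without library 1, and 0.00074 for all genes. In the same libraries 7 of 8 meningeal fibroblast genes had values above 0, and 1 of them, Igf2, was called. The sum was 101 to 221 CPM in wild-type and 162 to 300.3 CPM in Igf2enh-/- libraries. It includes Igf2, so the rise of Igf2 given above is part of that difference. All 8 oligodendrocyte genes had values below 0 and none was called, with sums of 1586 to 2106 and 986 to 2103 CPM. Their part in the members' values was not tested.

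Kcnh4 was the member called. The 6 wild-type cortical libraries ran from 26.3 through 32.6 to 39.3 CPM and the 6 Igf2enh-/- libraries from 20.0 through 25.1 to 25.7 CPM. All 6 Igf2enh-/- values were under the lowest wild-type value, by a narrow margin between 25.7 and 26.3 CPM, and library 1 was the lowest. Groups did not overlap for this 1 member of 34 and for 1.31% of all genes. The means were 32.8 ± 4.88 CPM and 24.2 ± 2.18 CPM (SD, n = 6 each), a fold of 0.735. The log2 difference was -0.44 (SE 0.0812, adjusted p = 0.0313, edgeR) and -0.41 (SE 0.0798, adjusted p = 0.0348) without library 1. The adjusted p ranged from 7.99e-07 to 0.0961 over the alternatives. It was 0.0525 without the sex term, and above the threshold, at 0.0527 to 0.0961, when library 3, 4, 6, 9, 10, 11 or 12 was left out alone.

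**Figure D4:**
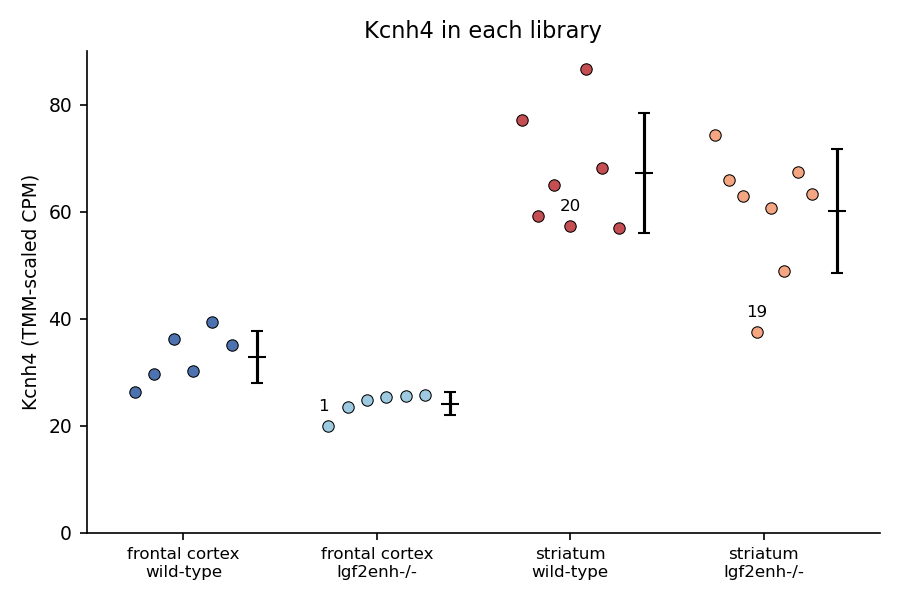
Kcnh4 (y axis, TMM-scaled CPM from 0) in each library of the 4 groups, with the mean and SD beside each group and libraries 1, 19 and 20 numbered. The 6 Igf2enh-/- cortical points lie between 20.0 and 25.7 CPM, below all 6 wild-type cortical points, while the striatal groups overlap.

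Kcnh3, Kcnq3 and Kcnq5 were among the 5 other members with an unadjusted p under 0.05 in frontal cortex. Kcnh3 ran from 210.1 through 235 to 250.1 CPM in wild-type and from 204 through 214 to 224 CPM in Igf2enh-/- libraries, a difference of -0.13 (SE 0.0424, adjusted p = 0.208, edgeR). The groups overlapped. Kcnq5 and Kcnq3 had differences of -0.13 each (SE 0.0490 and 0.0510, adjusted p = 0.268 and 0.270), or -0.09 (SE 0.0368) and -0.08 (SE 0.0309) without library 1. None of these 5 passed. The widest values among the members not called were 0.35 (SE 0.225) for Kcna5 and -0.39 (SE 0.214) for Kcns1, with adjusted p of 0.518 and 0.445. Without library 1 they were 0.19 (SE 0.205) and -0.22 (SE 0.155), and Kcng1 was at 0.23 (SE 0.145). Of 10 auxiliary subunits tested none passed, and 2 had an unadjusted p under 0.05, Kcnip4 at -0.15 (SE 0.0420) and Dpp10 at -0.10 (SE 0.0371). None of 8 anchoring genes passed or had an unadjusted p under 0.05.

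**Figure D5:**
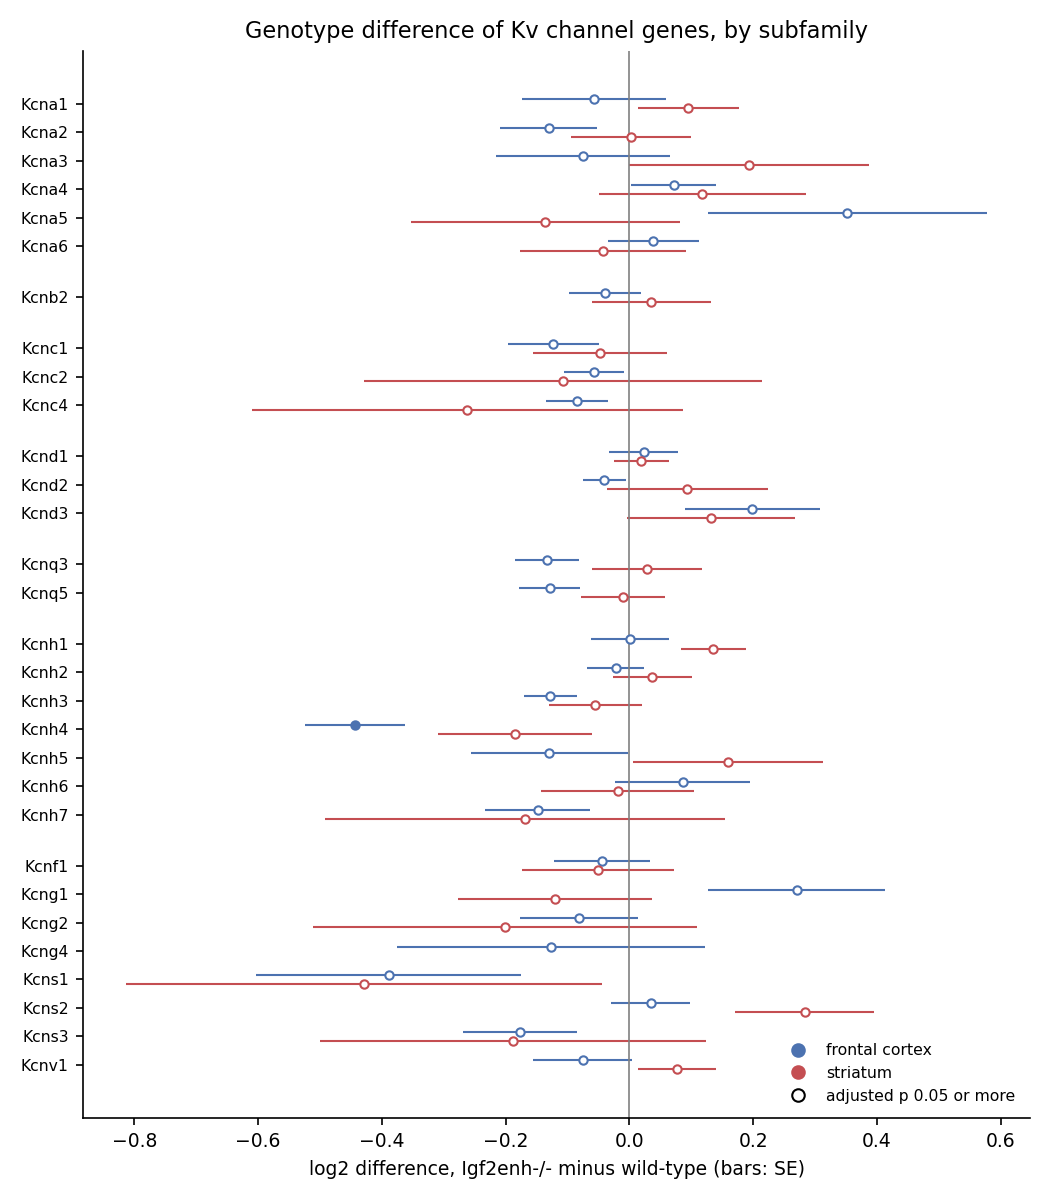
Log2 difference between Igf2enh-/- and wild-type libraries (x axis, Igf2enh-/- minus wild-type, bars are SE) for Kv channel genes, by subfamily, in frontal cortex (blue, 30 of the 34 tested) and striatum (red, 29 of the 33 tested). Kcnh4 in frontal cortex is the only filled point, at -0.44, and the bars of many striatal genes cross 0.

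In striatum 0 of 33 members were called by the edgeR quasi-likelihood test, where 0.036% of 13875 genes passed. The likelihood ratio test of edgeR called 0 members and 56 genes in all, and DESeq2 called 0 members and 112 genes. An unadjusted p under 0.05 was reached by 2 of 33 members, against 10% of all genes. The median log2 difference was -0.01 for the members, 0.05 without library 20, and 0.00041 for all genes, and 17 of 33 members were below 0, or 10 of 33 without library 20. No member's groups were free of overlap, against 0.202% of all genes. Kcnh1 ran from 87.2 through 106 to 109 CPM in wild-type and from 102 through 111 to 131 CPM in Igf2enh-/- libraries (0.14, SE 0.0529, adjusted p = 0.417). Kcns2 ran from 37.4 through 61.0 to 67.1 CPM and from 48.7 through 71.96 to 85.7 CPM (0.28, SE 0.112, adjusted p = 0.426), its lowest value being library 20. Both genes overlapped between genotypes, Kcnh1 only between 102 and 109 CPM. Kcnh4 ran from 56.9 through 65.0 to 86.8 CPM and from 37.6 through 63.2 to 74.3 CPM, a difference of -0.19 (SE 0.124, adjusted p = 0.682) in which the lowest library was number 19. Its groups overlapped. Of the 11 auxiliary subunits tested none passed, and Kcnip3 at -0.20 (SE 0.0575, adjusted p = 0.279) had the smallest p. The 7 cortical projection neuron genes tested in striatum all had values below 0 and none was called, with a cortical sum of 66.6 to 1365 CPM in wild-type and 194 to 1010 CPM in Igf2enh-/- libraries. All 8 oligodendrocyte genes were also below 0, with a median of -0.31. The 7 meningeal fibroblast genes tested were all above 0, as were 10 of 11 medium spiny genes, with 1 below. None of these was called, and their part in the members' values was not tested.

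The difference between the genotype effects of the regions was called for 0 of 34 members by edgeR and by DESeq2, and for 0% of 14894 genes, and 0 members had an unadjusted p under 0.05. For Kcnh4 it was 0.28 (SE 0.178, adjusted p = 0.999), so the frontal cortex value was not shown to differ from that of striatum.

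Sex, which was a term of each fit, was called for 0 of 34 members in frontal cortex and 0 of 33 in striatum by the edgeR quasi-likelihood test, where 0.0431% and 0.0432% of all genes passed. DESeq2 called 0 members in either region, and 21 and 16 genes in all. Unadjusted p under 0.05 in edgeR was reached by 2 members in frontal cortex, against 7.56% of all genes, and by 4 in striatum, against 10.8%. Kcna1 was among them in both regions, with log2 differences (male minus female) of 0.29 (SE 0.117, adjusted p = 0.611) and 0.18 (SE 0.0821, adjusted p = 0.461). In striatum the smallest p was that of Kcnd1, at -0.17 (SE 0.0446, adjusted p = 0.448). In that fit the 7 cortical projection neuron genes tested were all above 0, with a median of 0.64. All 11 medium spiny genes were below 0, with a median of -0.32. None of these was called, and their part in the members' sex values was not tested.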

How the data were processed

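Total RNA was depleted of ribosomal RNA and sequenced as 75-base single-end reads. Per the submitters' processing notes and the study's methods, reads were cleaned in Trim Galore 0.5.0 and mapped by STAR to GRCm38 with GENCODE vM15, and the authors deposited raw counts of reads per gene. The strand setting was not found, and overlapping or antisense genes can share reads. The tables held 0 columns of other series. Symbols came from a table matched by Ensembl identifier (32688 of 52636 identifiers), positions from RefSeq (GRCm38.p6) and exon lengths from GENCODE vM1.

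Levels are CPM scaled by TMM over the 27 libraries. Fits ran across all genes in edgeR 4.0.16 under R 4.3.3 (quasi-likelihood tests), with Benjamini-Hochberg adjustment: genotype and sex per region with at least 1 CPM in every library, and region within genotype, with sex, in a joint fit with a mean of 1 CPM over both regions. SE is the log2 difference divided by the root of F. The fits were tested on simulated counts. Alternatives were the likelihood ratio test, DESeq2 1.42.0, DESeq2 size factors, other filters, models without sex or with the RNA integrity number, and leaving out each library. A term for the group of trimming records was added after seeing the data. Members, lists and named genes were chosen with earlier results of these data known. Some members are counted in the totals and not reported here by name. Values per library are given, of the others, for members called for genotype, the 4 of smallest genotype p in each region, the 4 largest region differences in each direction among those called in both genotypes, the leader of each subfamily per length, and Kcnq1. Nothing says which libraries share a mouse, so p-values measure the spread between libraries.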

Additional observations from a re-analysis of the deposited data

Results flagged for a closer look

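In groups of 4 to 10 libraries, an extreme library was set apart where its gap to the nearest one, divided by the range of the group on the log2 scale, passed Dixon's limit. The test ran on 48 groups (11 members and the list mean), and chance alone passes about 1 in 20 of independent groups. The test passed 8 times, 5 of them in libraries 1 and 20. The members were chosen with results of these data known and are part of the list mean. Passes in 1 library are therefore not independent, and their number cannot be weighed against chance.

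Library 1 was the lowest Igf2enh-/- cortical library for the list mean (ratio 0.898, 4.54 against 4.71 for the nearest), for Kcnh1 (0.779, log2 level 6.90 against 7.25), for Kcnh4 (0.638, 4.36 against 4.58) and for Kcng4 (0.625, 1.69 against 2.73). Library 20 was the highest wild-type striatal library for Kcng4 (0.635, 3.36 against 1.21). Among Igf2enh-/- striatal libraries, library 23 was the highest for the list mean (0.577, 4.62 against 4.45) and for Kcnh7 (0.574, 6.65 against 5.71), and library 19 the lowest for Kcnh3 (0.535, 7.08 against 7.47). The cause of these values was not tested.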

How the results depend on the processing

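Region differences of the 8 members named for them kept direction and call under DESeq2, DESeq2 size factors, both other filters (Kcng4 was not in the stricter one) and without each of the 27 libraries. Members called between regions numbered 33 without any 1 library in wild-type mice and 28 to 31 in Igf2enh-/- mice. In frontal cortex the 1 member called for genotype was lost without the sex term (0 members) and numbered 0 to 1 without each library. Kcnh4 kept its direction throughout, with log2 differences of -0.49 to -0.38 and adjusted p of 0.0198 to 0.0961 without each library. It stayed called by the edgeR likelihood ratio test (adjusted p = 0.000137), DESeq2 (0.000134), DESeq2 size factors in edgeR (0.0315), no filter (7.99e-07) and with the RNA integrity number (0.0498). Striatum gave 0 members under every alternative, and the region by genotype term 0. Without a filter 1 member, Kcna1, was called for sex in frontal cortex, a gene named after its value was seen. The list mean difference was -0.063 to -0.025 in frontal cortex and -0.020 to 0.033 in striatum without each library, and -0.057 and 0.020 without silent modifiers and low members. No paired analysis was possible because library numbers run once through all 27 libraries and no number is shared between groups. The 6 members with at most 38 counts in any library entered only the fits without a filter, where 35 of 40 members were called between regions in wild-type and 30 in Igf2enh-/- mice.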
